A study of Mus musculus with 4 samples.

Results

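RNA levels of 35 lysosome and autophagy genes were compared between mice with sepsis that received melatonin (MLT) and septic mice without it, in the kidney and in the heart. The genes were a list of symbols that share a function. Its rule names genes and uses no values, but the list was drawn up with earlier results of these data known. It held the regulator Tfeb, 7 genes of the proton pump, 5 of the lysosomal membrane, 8 proteases, 6 enzymes that cut sugar chains, 5 genes of lipid handling and enzyme cofactors, and 3 of autophagy. All 35 were found among the 55401 genes of the count tables, and all 35 averaged 10 counts or more in both tissues. Sepsis was induced by cecal ligation and puncture (CLP), in which the gut is tied and pierced so that its bacteria leak into the abdomen. The kidneys were from male C57BL/6 mice of 8 weeks. The CLP + MLT group drank melatonin at 25 µg/ml, in water with a little ethanol, for 14 days before CLP, and its kidneys were taken 24 h after CLP, as were those of the CLP group. The hearts were labelled C57BL/6, CLP or CLP + MLT, and no source used here gives their age, dose or time. The names of both melatonin libraries carry the mark MLT4, which is not explained, and whether a library held RNA of 1 mouse or of a pool is not stated. Sham libraries were not used here.

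Each of the 4 groups had 1 library, so the difference between 2 libraries could not be set against the spread between mice, and no ratio below rests on a test between mice. Tests on the reads of single libraries, with no or an assumed variation between mice, served only as alternative call rules. The libraries held 15883057 to 22927905 reads counted on genes. Mitochondrial genes took 14.8% of the counts in the CLP kidney, 24.2% in the CLP + MLT kidney, 31.6% in the CLP heart and 36.0% in the CLP + MLT heart. Levels are given as CPM, the counts scaled to a common library size. For single genes the scaling was within each tissue, and for sums over marker lists it was over all 4 libraries. CPM of single genes are therefore not to be compared between kidney and heart. Genes of cardiac muscle summed to 41379 and 28935 CPM in the hearts, against 17.8 and 26.4 in the kidneys. Proximal tubule genes summed to 3752 (CLP) and 4533 (CLP + MLT) CPM in the kidneys. In the hearts the same 10 tubule genes still summed to 542 and 665, and their median ratio was higher in the CLP + MLT heart by 1.11 on the log2 scale. Most of the reads in these heart sums were of Aqp1, with 6382 counts in CLP and 6224 in CLP + MLT. The next was Slc34a1, with 587 and 1454. No tubule gene of this list was at 0 in a heart library. Whether kidney RNA has a part in the heart values below was not tested.

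Lysosomes are acid compartments in which cells break down protein, sugar chains and lipids that arrive by endocytosis or by autophagy. The vacuolar ATPase (V-ATPase) pumps protons into them, and cathepsins and other hydrolases work at the acid pH it makes. In autophagy a membrane studded with LC3 and GABARAP proteins closes around cargo and fuses with the lysosome. The transcription factor TFEB, when it is in the nucleus, binds CLEAR elements, promoter sequences built around CACGTG, and activates many of these genes. Proximal tubule cells of the kidney take up filtered protein and are rich in lysosomes.

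The promoters are shown first, because CACGTG is what many of these genes share beyond their function. RefSeq windows (GRCm38.p6, from 250 bases before to 50 bases after the start of transcription) were found for 29 of the 35 genes. Some genes had more than 1 window, and a gene was counted once if any of its windows held the sequence. CACGTG, which reads the same on both strands, was held by 10 of these 29 genes (34.5%) and by 8.09% of 27025 genes. The longer form TCACGTGA, which contains CACGTG and is also its own complement, stood in 6 of 29 (20.7%) against 1.12% of all genes. The full 10-base CLEAR palindrome, which contains both shorter forms, stood in 0 of 29 and in 0.370% of all genes. The 5 stretches below, written 5′ to 3′ on the strand of the gene with each CACGTG in capitals, are from genes whose values are described later. The Lamp1 stretch (chr8:13159091-13159160, plus strand, the last 70 bases before the start) holds 4 copies. The Mcoln1 stretch is chr8:3500434-3500493 (plus strand, 85 to 26 bases before the start), the Ctsd stretch chr7:142387888-142387947 (minus strand, 120 to 61 before) and the Ctsa stretch chr2:164833713-164833772 (plus strand, the last 60 before). The Ctsl stretch is chr13:64370711-64370770 (minus strand, 250 to 191 before).
Lamp1: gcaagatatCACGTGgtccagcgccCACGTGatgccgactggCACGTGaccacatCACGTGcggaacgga
Mcoln1: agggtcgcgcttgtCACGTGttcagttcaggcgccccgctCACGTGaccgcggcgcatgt
Ctsd: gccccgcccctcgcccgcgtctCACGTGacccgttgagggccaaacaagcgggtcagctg
Ctsa: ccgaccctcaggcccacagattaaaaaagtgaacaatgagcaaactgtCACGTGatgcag
Ctsl: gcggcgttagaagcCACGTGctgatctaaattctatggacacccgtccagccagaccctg

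In the kidney, 33 of the 35 genes were lower in CLP + MLT than in CLP, and the other 2, Tfeb and Glb1, were higher. Taken as CLP + MLT over CLP, the median log2 ratio was -0.37 over the 35 genes, against 0.0029 over the 16932 genes that averaged 10 counts or more. Ratios were taken on counts scaled by TMM, a method that sets most genes to no change, and every interval given is a 95% exact interval for the error of counting reads, not for the difference between mice. The interval lay below 0 for 27 of the 35 genes, above 0 for 2 and across 0 for 6. A gene was called lower or higher past a fold of 1.5. By this rule 9 of the 35 genes (25.7%) were lower in the CLP + MLT kidney, and 0 were higher. Of all genes, 11.6% were called lower and 11% higher (22.6% in all). With libraries scaled by their size only, the median of all genes moved to -0.19 and that of the 35 genes to -0.57, 17 of the 35 were called lower, and the calls over all genes went from 1863 higher and 1971 lower to 1149 and 3172. If mice of a group were assumed to vary with a coefficient of variation of 0.2 and edgeR's exact p of at most 0.01 was also asked for, only Ctsl stayed called. Among genes that averaged 100 counts or more, where fewer pass by counting error, 6.18% were called lower and 6.25% higher. All 35 genes together took 1.11% of the counts in the CLP kidney and 0.714% in the CLP + MLT kidney, or 1.30% and 0.943% of the counts outside mitochondrial genes. In whole tissue, fewer cells of a type that is rich in lysosomes and less RNA per cell cannot be told apart.

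**Figure D1:**
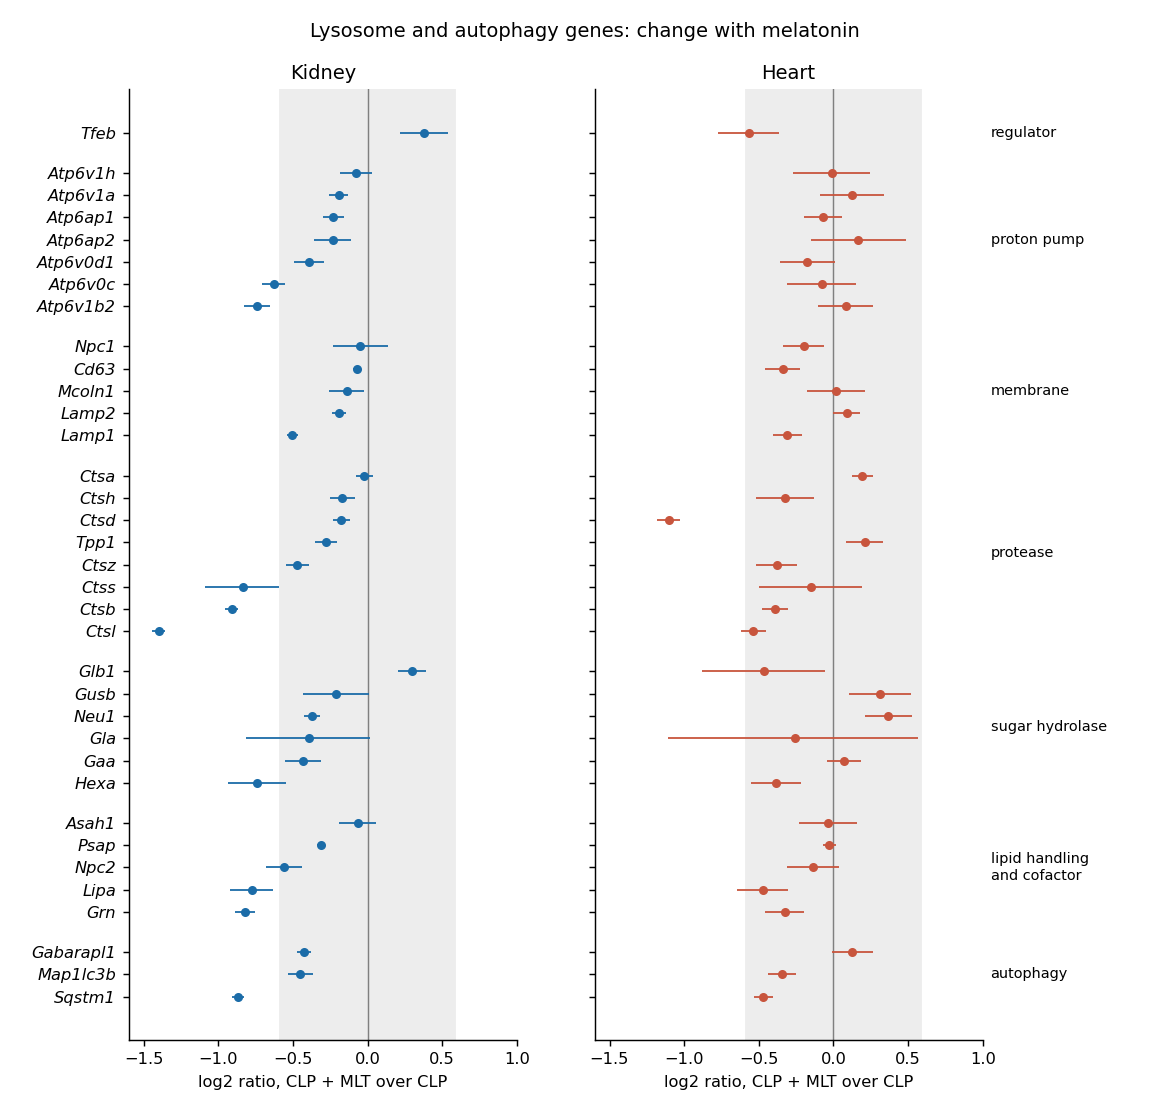
Log2 ratio of CLP + MLT over CLP for each of the 35 genes in kidney (left) and heart (right), ordered by role. Points are the ratio of 2 libraries, bars are 95% intervals for counting error, and the grey band marks ratios within a fold of 1.5. In kidney 9 points lie left of the band and 33 lie left of 0, and in heart only Ctsd lies left of the band.

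Tfeb itself (chr17:47737030-47792419, GRCm38) did not go with the other genes in the kidney. It was counted 715 times in the CLP kidney and 584 times in the CLP + MLT kidney, or 29.1 and 37.9 CPM. The log2 ratio was 0.38 (0.22 to 0.54), inside the limit of 1.5-fold. In the heart the counts were 509 and 341, or 31.2 and 21.1 CPM, and the ratio was -0.57 (-0.77 to -0.37), just inside the limit. Tfeb was thus higher with melatonin in one tissue and lower in the other, with both intervals away from 0. RNA level does not show whether the TFEB protein was in the nucleus.

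The proteases held the 2 lowest ratios in the kidney. Ctsl (chr13:64359337-64370890), the gene of the cysteine protease cathepsin L, had the lowest ratio of the 35 genes there. Its counts were 21265 in CLP and 5063 in CLP + MLT, or 867 and 329 CPM, a level 2.64-fold lower (log2 ratio -1.40, -1.44 to -1.35). In the heart the counts were 2807 and 1920, 172 and 119 CPM, and the ratio was -0.54 (-0.62 to -0.45). Ctsl was thus the lowest gene of the group in kidney and was lower in the heart too, inside the limit. Ctsb (chr14:63122462-63145923), cathepsin B, was counted 18581 and 6202 times in the kidneys, 757 and 403 CPM, which is 1.88-fold lower (-0.91, -0.95 to -0.87). In the hearts Ctsb had 2455 and 1858 counts, 151 and 115 CPM (-0.39, -0.48 to -0.30). Ctss (chr3:95526786-95556403) codes for cathepsin S, a protease of antigen-presenting cells. It had 524 and 184 counts in the kidneys and 150 and 134 in the hearts. The kidney ratio was -0.84 (-1.09 to -0.59), and the heart ratio of -0.15 (-0.50 to 0.19) could not be told from 0 at this depth.

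Ctsd (chr7:142375911-142388038), the aspartic protease cathepsin D, showed the reverse order of the tissues. In the kidney it had 7264 and 4034 counts, 296 and 262 CPM (-0.18, -0.23 to -0.12). In the heart it had 4537 and 2096 counts, 278 and 129 CPM, a level 2.15-fold lower in CLP + MLT (-1.10, -1.18 to -1.03). It was the only one of the 35 genes called in the heart, where it was the lowest. The other 4 proteases stayed inside the limit in both tissues. Ctsz (cathepsin Z) had ratios of -0.47 in kidney and -0.38 in heart, and Ctsh (cathepsin H) -0.17 and -0.32, with all 4 intervals below 0. Tpp1, a peptidase that removes tripeptides, was -0.28 (-0.35 to -0.21) in kidney and 0.21 (0.09 to 0.33) in heart. Ctsa, which protects the enzymes made from Neu1 and Glb1 in a complex, was -0.02 (-0.08 to 0.03) and 0.19 (0.12 to 0.26). Of the 8 proteases, 8 were lower in kidney and 6 in heart, with medians of -0.38 and -0.35.

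Among the lipid and cofactor genes, 2 of 5 (40.0%), Grn and Lipa, were called lower in the kidney, against 11.6% of all genes. Grn (chr11:102430315-102437048) codes for progranulin, which is cut to granulins in the lysosome. It had 6980 and 2483 counts in the kidneys, 285 and 161 CPM (-0.82, -0.89 to -0.75), and 1082 and 856 in the hearts (-0.33, -0.46 to -0.20). Lipa (chr19:34492318-34527474), the acid lipase of cholesteryl esters and triglycerides, had 1478 and 542 counts in the kidneys, 60.2 and 35.2 CPM (-0.77, -0.92 to -0.63). Its heart counts were 675 and 483 (-0.47, -0.64 to -0.30). Npc2, which hands cholesterol to Npc1, came close to the limit in kidney at -0.56 (-0.68 to -0.44) and was -0.14 (-0.31 to 0.03) in heart. Psap, the precursor of the saposins that help lipid hydrolases, had the most reads of the 35 genes in each library: 39440 and 19926 in the kidneys and 8598 and 8381 in the hearts. Its ratios were -0.31 (-0.34 to -0.29) and -0.03 (-0.07 to 0.02). Asah1, acid ceramidase, had intervals across 0 in both tissues, with ratios of -0.06 and -0.04. All 5 were lower in both tissues by their ratios, with medians of -0.56 in kidney and -0.14 in heart.

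Of the 6 sugar hydrolases, 1 (16.7%), Hexa, was called lower in the kidney, against 11.6% of all genes. Hexa (chr9:59539540-59565109), the alpha chain of beta-hexosaminidase A, had 782 and 294 counts there, 31.9 and 19.1 CPM (-0.74, -0.94 to -0.54). In the hearts it had 667 and 508 counts (-0.38, -0.55 to -0.21). Gaa, which breaks down glycogen in the lysosome, was -0.43 (-0.56 to -0.31) in kidney and 0.07 (-0.05 to 0.18) in heart. Neu1, the sialidase, was -0.37 (-0.42 to -0.32) in kidney and 0.37 (0.21 to 0.52) in heart. Its counts were 9231 and 4479 in the kidneys and 603 and 773 in the hearts. Glb1, beta-galactosidase, ran the other way: 0.30 (0.20 to 0.39) in kidney, on 2026 and 1562 counts, and -0.46 (-0.88 to -0.06) in heart, on 121 and 87. Gusb, beta-glucuronidase, was -0.21 (-0.44 to 0.01) and 0.31 (0.11 to 0.52). Gla, alpha-galactosidase A, was the least abundant of the 35 genes, with 155 and 74 counts in the kidneys and 29 and 24 in the hearts, and both of its intervals crossed 0. This was the most divided group, with 5 lower and 1 higher in kidney and 3 each way in heart.

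The 3 autophagy genes were all lower in the kidney. Sqstm1 (chr11:50199366-50210827) codes for p62, a receptor that carries ubiquitin-tagged cargo into autophagosomes and a target of the oxidative stress factor NRF2. It had 20138 and 6926 counts in the kidneys, 821 and 449.8 CPM, 1.82-fold lower (-0.87, -0.91 to -0.83). In the hearts it had 4616 and 3309 counts, 283 and 204 CPM (-0.47, -0.54 to -0.41). Map1lc3b, the LC3B protein that is bound to the autophagosome membrane, had 3480 and 1599 counts in the kidneys (-0.45, -0.54 to -0.36) and 2198 and 1719 in the hearts (-0.34, -0.44 to -0.25). Gabarapl1, of the GABARAP branch of the same family, was -0.43 (-0.47 to -0.38) in kidney and 0.13 (-0.01 to 0.26) in heart. Sqstm1 and Map1lc3b were thus lower in both tissues with intervals below 0. These are RNA levels of the machinery and do not measure autophagic flux.

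The membrane genes differed least among the roles in kidney, with a median of -0.14 and 0 of 5 called. Of all genes 22.6% were called, and 12.4% of those that averaged 100 counts or more. Lamp1 (chr8:13159161-13175338), the main glycoprotein of the lysosomal membrane, had 17418 and 7709 counts in the kidneys, 710.0 and 501 CPM (-0.50, -0.54 to -0.47). In the hearts it had 1927 and 1543 counts, 118 and 95.3 CPM (-0.31, -0.41 to -0.21). Lamp2, which also serves autophagy, was -0.19 in kidney and 0.09 in heart. Cd63, a tetraspanin of late endosomes, was -0.07 (-0.10 to -0.05) in kidney on 31069 and 18522 counts and -0.34 (-0.46 to -0.22) in heart. Mcoln1, a calcium channel of the lysosome, was -0.14 and 0.02, and Npc1, which exports cholesterol, was -0.05 and -0.20.

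In the proton pump, 2 of 7 genes (28.6%) were called lower in the kidney. Of all genes 11.6% were called lower, and 6.18% of those that averaged 100 counts or more. The V-ATPase has a membrane part, V0, that carries the protons and a part in the cytosol, V1, that splits ATP. Atp6v1b2 (chr8:69088646-69113711), the broadly expressed form of the B subunit of V1, had 3889 and 1461 counts in the kidneys, 159 and 94.9 CPM (-0.74, -0.83 to -0.65). Atp6v0c (chr17:24163866-24169702), which forms the proton-carrying ring, had 4546 and 1844 counts, 185 and 119.8 CPM (-0.63, -0.71 to -0.55). In the hearts these 2 genes had ratios of 0.08 (-0.10 to 0.27), on 473 and 497 counts, and -0.08 (-0.31 to 0.15), on 330 and 310. Atp6v0d1, the stalk that joins both parts, was -0.39 in kidney and -0.17 in heart. The catalytic subunit Atp6v1a was -0.19 and 0.13, and the regulatory subunit Atp6v1h was -0.08 and -0.01. The accessory genes Atp6ap1 and Atp6ap2, the latter also known as the prorenin receptor, were each -0.23 in kidney, and -0.07 and 0.17 in heart. All 7 intervals crossed 0 in the heart, where the median of the pump genes was -0.01.

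The kidney uses several forms of pump subunits, and the other 17 pump genes were read beside the 7. Of these 17, 7 were higher and 10 lower in the kidney, and 2 (11.8%) were called, both higher. Of all genes 22.6% were called, and 12.4% of those that averaged 100 counts or more. Atp6v1b1, the B subunit of the acid-secreting intercalated cells of the collecting duct, had 2893 and 2767 counts (0.61, 0.53 to 0.68). Per length, its level was 0.901 of that of Atp6v1b2 in the CLP kidney and 2.29 of it in the CLP + MLT kidney, so that the order of these B subunits turned. Atp6v1c2 had 734 and 788 counts (0.77, 0.63 to 0.92). In the heart 5 of the 16 that averaged 10 counts or more were called, where 23.5% of all genes were. Higher were Atp6v1b1 (26 and 45 counts), Atp6v1c2 (3 and 24), Atp6v0d2 (8 and 20) and Atp6v0e2 (21 and 48), and lower was Atp6v1g2 (107 and 69). In the hearts Atp6v1b2 was 15.0 (CLP) and 9.12 (CLP + MLT) times as high as Atp6v1b1 per length. The list of 10 intercalated and principal cell markers was also higher in the CLP + MLT kidney, with 8 of 10 higher and a median of 0.42. Called higher were 4 of the 10 (40.0%, against 11.0% of all genes), Slc4a1, Rhbg, Avpr2 and Fxyd4. Its summed level was 616 and 726 CPM in the kidneys, and 14.2 and 40.8 in the hearts, where Rhbg was at 0 in CLP. The part of these cells in the pump values was not tested.

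**Figure D2:**
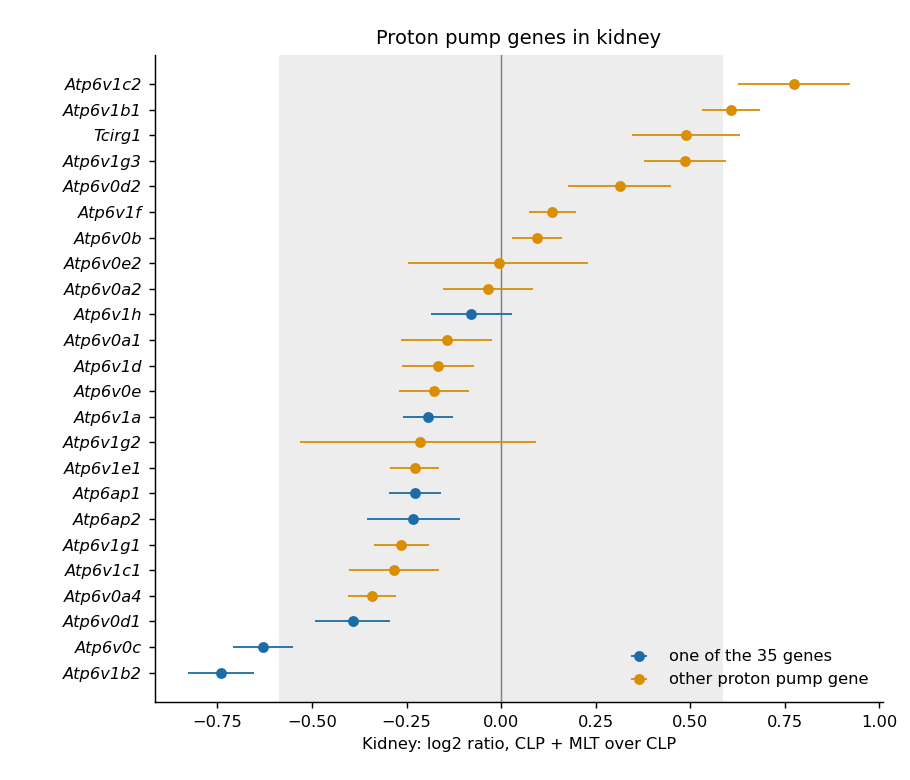
Log2 ratio of CLP + MLT over CLP in kidney for the 24 proton pump genes, 7 of them among the 35 genes and 17 others. Points are the ratio of 2 libraries, bars are 95% intervals for counting error, and the grey band marks a fold of 1.5. Atp6v1b2 and Atp6v0c lie left of the band and Atp6v1c2 and Atp6v1b1 right of it.

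In the heart, 24 of the 35 genes were lower and 11 higher in CLP + MLT, with a median log2 ratio of -0.15, against 0.0023 over 15871 genes. Of all genes, 12.6% were called lower and 10.9% higher (23.5% in all), against 1 of 35 and 0 of 35 here. Among genes that averaged 100 counts or more these shares were 8.49% lower and 4.17% higher. Intervals lay below 0 for 15 genes, above 0 for 4 and across 0 for 16. The 4 above 0 were Neu1, Gusb, Tpp1 and Ctsa. The count of lower genes in heart moved with the scaling, from 24 to 21 of 35 when libraries were scaled by their size or upper quartile. All 35 genes took 0.288% and 0.258% of the counts in the hearts, or 0.422% and 0.403% outside mitochondrial genes.

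The tissues were set side by side gene by gene. By their ratios, 22 genes were lower with melatonin in both tissues, 11 were lower in kidney and higher in heart, 2 were higher in kidney and lower in heart, and 0 were higher in both. Both intervals lay below 0 for 12 genes. Across the 35 genes, the ratios of the tissues had a Pearson correlation of 0.16 and a Spearman correlation of 0.24, which are given as a description, since the genes of a tissue share their 2 libraries. For Tfeb, Glb1, Neu1 and Tpp1 the intervals lay on opposite sides of 0 in the 2 tissues. The difference between the tissues could not be tested.

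**Figure D3:**
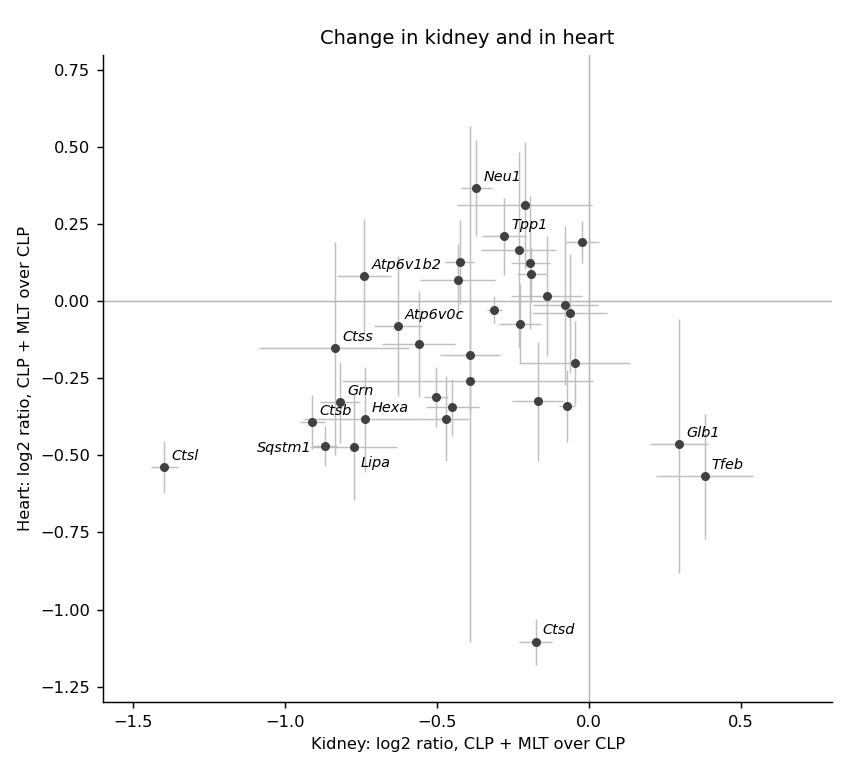
Log2 ratio of CLP + MLT over CLP in kidney (horizontal axis) and in heart (vertical axis), 1 point per gene, with 95% intervals for counting error in both directions. Genes called in either tissue and the 4 genes with intervals on opposite sides of 0 are named. Most points lie left of 0, with Ctsl farthest left and Ctsd lowest.

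The level of these genes was also compared between the tissues. Scaled over all 4 libraries, 28 of the 35 genes were lower in the CLP heart than in the CLP kidney and 7 were higher, with no interval across 0. The median log2 ratio of heart over kidney was -1.36, against -0.07 over 17088 genes. Past 1.5-fold, 26 of 35 were lower in heart and 2 higher, where 36.8% of all genes were lower and 33.8% higher. Cd63 was 12.3-fold lower in heart, and Glb1 followed at -3.17 on the log2 scale. Then came Atp6v1a, 8.42-fold lower, Neu1, 8.24-fold, and Atp6v0c, 7.41-fold. The higher ones were Npc1, 2.72-fold, and Hexa, 1.58-fold. Ctsd and Map1lc3b were close to even, 1.16-fold and 1.17-fold higher in heart.

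Compared per length, as CPM per kilobase of exon (RPKM), Psap led in every library, with 523 and 421 in the kidneys and 212 and 215 in the hearts. Cd63 with 307, Lamp1 with 237, Sqstm1 with 219 and Gabarapl1 with 203 followed in the CLP kidney. In the CLP heart Ctsd with 130.5 and Sqstm1 with 93.0 came next. Ctsl went from rank 6 of 35 in the CLP kidney to rank 12 in the CLP + MLT kidney, at 119 and 45.2 RPKM. Ctsd went from 130.5 to 62.7 RPKM between the hearts and changed place with Sqstm1, at 93.0 and 69.3. Gla was last in each library, at 1.73 and 1.31 in the kidneys and 0.600 and 0.517 in the hearts. Ranks of neighbours are those of single libraries, with no spread to set them against.

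**Figure D4:**
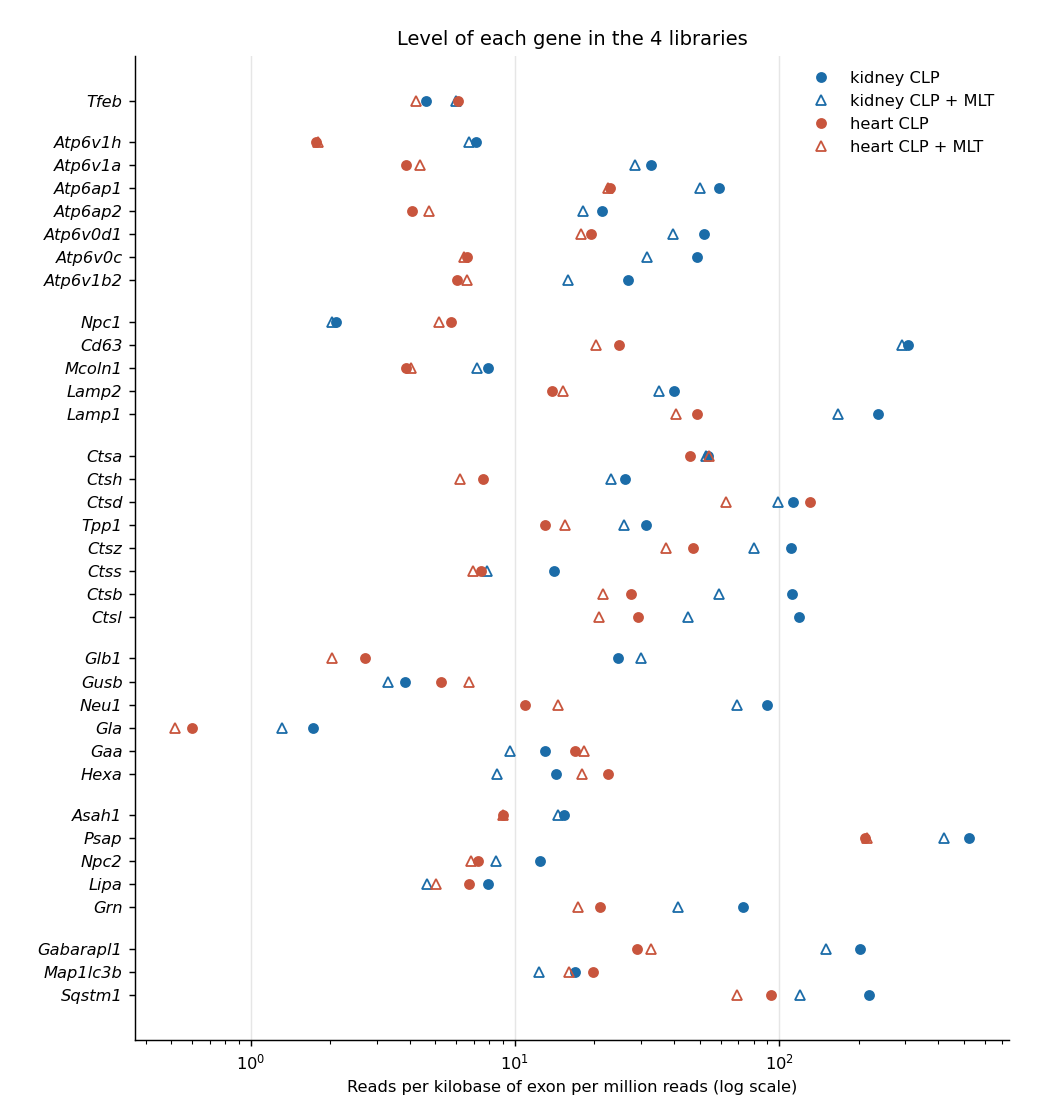
Level of each of the 35 genes in the 4 libraries, in RPKM on a log scale, scaled over all 4 libraries. Filled circles are CLP and open triangles CLP + MLT, in blue for kidney and red for heart. Psap is highest and Gla lowest in each library, and for 28 genes the filled red circle lies left of the filled blue one.

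The other genes of the lysosome and of autophagy had a median ratio closer to 0 than the 35 in the kidney. Of 164 further genes in 7 lists, 110 were lower and 54 higher in the kidney, and the median was -0.12. Of the 164, 13 (7.93%) were called lower and 5 (3.05%) higher, against 11.6% and 11.0% of all genes. At an average of 100 counts or more, which most of the 164 reached, the shares of all genes were 6.18% and 6.25%. In the heart 162 averaged 10 counts or more, with 81 each way and a median of 0.0020. Of the 162, 14 (8.64%) were called lower and 11 (6.79%) higher, against 12.6% and 10.9% of all genes. At 100 counts or more the shares of all genes in heart were 8.49% and 4.17%. Of 34 further lysosomal enzymes, 26 were lower in kidney, 4 of them called. These 4 were 11.8% of the 34, against 11.6% of all genes and 6.18% of those that averaged 100 counts or more. In heart 25 were higher, 3 of them called (8.82% of the 34, against 10.9% of all genes). Called lower in heart were 4 (11.8%, against 12.6%). Legumain (Lgmn), an endopeptidase that processes cathepsins, had 14683 and 4083 counts in the kidneys (-1.17, -1.22 to -1.12). Arsb, a sulfatase, and Nagpa, which uncovers the mannose 6-phosphate sorting tag, were called lower there at -0.69 and -0.60, as was the carboxypeptidase gene Scpep1 at -0.60. In the heart Gm2a, the cofactor of hexosaminidase A, and the aminopeptidase gene Ctsc were called higher at 0.66 and 0.62, and the third was Ctsk, with 22 and 39 counts. Ppt2, the heparan sulfamidase gene Sgsh and the sphingomyelinase gene Smpd1 were called lower there at -0.81, -0.64 and -0.63, as was Acp5, an acid phosphatase, with 117 and 64 counts.

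Of 25 further genes of the membrane and of delivery to lysosomes, 18 were lower in kidney. Of the 25, 4 (16.0%) were called lower and 0 higher, against 11.6% and 11.0% of all genes. At 100 counts or more these shares of all genes were 6.18% and 6.25%. Scarb2, the receptor that carries glucocerebrosidase to lysosomes, had 1628 and 490 counts (-1.06, -1.21 to -0.91), Mfsd12 539 and 156 (-1.11, -1.38 to -0.86), and the cystine exporter Ctns 937 and 378 (-0.64, -0.81 to -0.46). The last was Igf2r, the receptor that sorts enzymes with mannose 6-phosphate, with 2496 and 1030 counts. In the heart Laptm4b was called higher at 0.73 and Ostm1 lower at -0.59, as was Tmem192 with 122 and 37 counts. Of 20 initiation and phagophore genes, 1 (5.0%) was called in each tissue, against 22.6% of all genes in kidney and 23.5% in heart. At 100 counts or more, 12.4% and 12.7% of all genes were called. In kidney the called gene of this list was Atg9b, on 10 and 10 counts. In heart it was Atg101, a subunit of the ULK1 complex, with 254 and 112 counts (-1.17, -1.51 to -0.85). Of 20 genes of LC3 conjugation and fusion, 15 were lower and 5 higher in kidney, and 14 lower and 6 higher in heart. In kidney 2 of the 20 were called, against 22.6% of all genes and 12.4% of those that averaged 100 counts or more. They were Atg16l2, higher at 0.67, and Plekhm1, a fusion factor, lower at -0.59. In heart 1 of the 20 (5.0%) was called, where these shares of all genes were 23.5% and 12.7%. That one was Map1lc3a, the LC3A gene, with 2946 and 1386 counts in the hearts (-1.08, -1.17 to -0.99) and -0.17 in kidney. Per length, Map1lc3a stood 8.53 times as high as Map1lc3b in the CLP heart and 5.13 times in the CLP + MLT heart. These folds rest on the joined length of all annotated exons, 7517 bases for Map1lc3b. By counts, Map1lc3b had 2198 reads in the CLP heart and 1719 in the CLP + MLT heart.

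Of 15 autophagy receptors and mitophagy genes, Ncoa4, which takes ferritin to the lysosome, was called lower in kidney with 984 and 321 counts (-0.94, -1.13 to -0.76), as was the mitophagy receptor Fundc1 at -0.59. In the heart Pink1, a kinase that marks damaged mitochondria for autophagy, had 4995 and 2857 counts (-0.80, -0.86 to -0.73). Of 33 genes of nutrient sensing at the lysosome, 2 (6.06%) were called in kidney, both lower. Of all genes 22.6% were called there, and 12.4% of those that averaged 100 counts or more. In heart, 7 of the 32 that averaged 10 counts or more (21.9%) were called, 3 higher and 4 lower. Of all genes 23.5% were called in heart, and 12.7% of those that averaged 100 counts or more. The second in kidney was Trib3, with 47 and 10 counts. The AMPK subunit Prkaa2 was called lower in kidney (1585 and 631 counts, -0.66) and higher in heart (144 and 222 counts, 0.63). Ddit4, an inhibitor of mTORC1, was called lower in heart with 803 and 428 counts (-0.90, -1.07 to -0.73), as was Castor2 at -0.82, and Fnip2, a partner of folliculin, was called higher at 0.61. The others in heart were Sesn2 (93 and 55 counts) and Sesn3 (76 and 49), lower, and Rragb (5 and 16), higher.

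**Figure D5:**
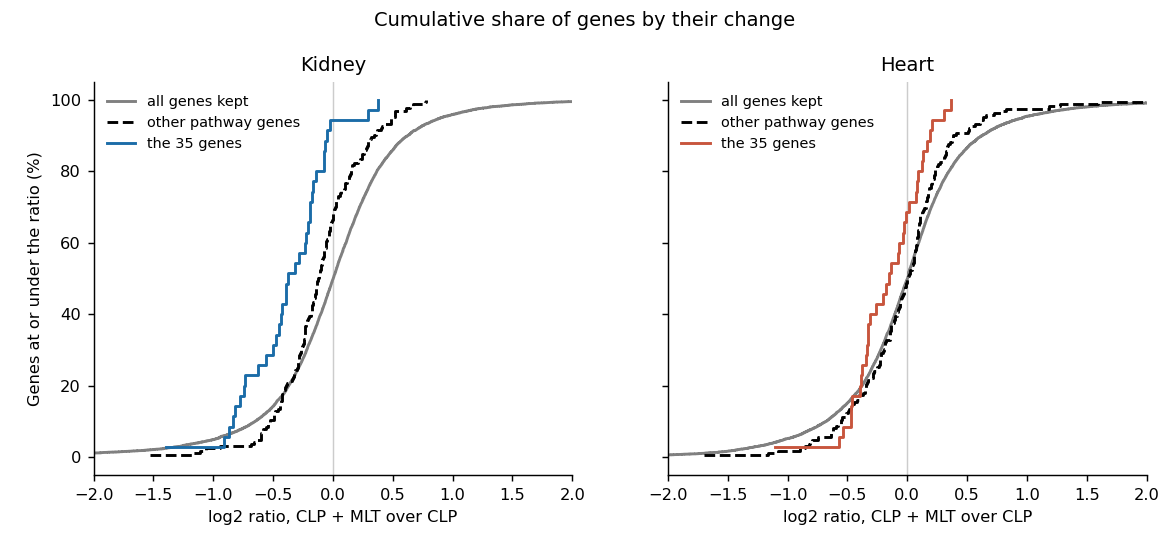
Cumulative share of genes at or under each log2 ratio of CLP + MLT over CLP, in kidney (left) and heart (right), for all genes that averaged 10 counts or more (grey), the 164 other pathway genes (dashed) and the 35 genes (coloured). In kidney the 35 genes run left of both other curves over most of the range, with a median of -0.37 against -0.12 and 0.0029.

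The promoters printed above were read against these ratios. Of the 10 genes with CACGTG in the window, the median ratio was -0.29 in kidney and -0.22 in heart, and of the 19 genes whose window lacked it the medians were -0.43 and -0.14. Of the 7 genes called lower in kidney that had a window, 1 held CACGTG, and this was Ctsl, with a single copy far from the start and without the TCACGTGA form. Lamp1, with 4 copies in the last 70 bases, had ratios of -0.50 and -0.31. Mcoln1, with 2, had -0.14 and 0.02. Ctsa and Ctsd both held TCACGTGA, and their heart ratios were 0.19 and -1.10. A match of letters is not a site of binding, and no window was given for Ctsb, Ctsh, Npc1, Asah1, Atp6v1h and Atp6v1b2.

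Of the 10 proximal tubule genes, 7 had a ratio above 0 in kidney, and their median was 0.43. They were divided, with Slc34a1, Slc22a8 and Slc22a30 called higher and the glucose transporter gene Slc5a2 (4771 and 637 counts), Slc5a12 (955 and 60) and Slc22a6 called lower. Markers of immune cells are given beside the values because macrophages are rich in cathepsins. The 12 macrophage genes summed to 157 CPM in the CLP kidney and 237 in the CLP + MLT kidney, and to 329 and 375 in the hearts, with none at 0. In the hearts Lyz2 went from 998 to 2171 counts (61.2 to 134 CPM when scaled within the tissue, unlike the sums). Of the 11 genes that averaged 10 counts or more, 6 were lower there, with a median of -0.21. C1qa, Mrc1 and Cd163 were called lower there and Adgre1 and Lyz2 higher. In the kidney 8 of the 10 that averaged 10 counts or more were higher with melatonin, with a median of 0.29, so that this list went the other way from Ctsb, Ctsl and Ctss. Within it Lyz2 was 1.81 and Cd14 -2.83 in kidney. The 11 neutrophil genes summed to 21.6 and 15.1 CPM in the kidneys and 62.9 and 47.7 in the hearts, and Ly6g was at 0 in all 4. Of the 7 endothelial genes, 6 were lower in kidney with a median of -0.43, and of the 6 fibroblast genes that averaged 10 counts or more 4 were lower with a median of -0.18. The endothelial genes summed to 231 and 186 CPM in the kidneys, and the fibroblast genes to 174 and 160. In the heart 6 of the 7 endothelial genes were higher, with a median of 0.14, and 6 of 7 fibroblast genes lower, with a median of -0.32. In the heart the cardiac muscle list had a median of -0.51, with 9 of 13 lower. This median lay below the median of -0.15 of the 35 genes. Of the 13, 6 (46.2%) were called lower and 1 (7.69%), Myh7 (14893 and 28424 counts), higher, against 12.6% and 10.9% of all genes. The part of any of these cells in the lysosomal values was not tested.

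Some counts are uncertain by position. Of the 35 genes, 14 share exon bases with another gene, 7 of them over at least 10% of their exons. Ctsd shares 34.4% with Gm49369 on the same strand, which has 0 counts in all 4 libraries. Reads in these shared bases may have been left uncounted for both genes, and the RPKM of Ctsd used all of its exons. Ctsl shares 26.8% with the antisense gene Gm47123, counted 8 to 89 times. Gabarapl1 shares 28.3% with 1700101I11Rik and Sqstm1 17.3% with Mrnip, both on the opposite strand, at -0.87 and 0.56 in kidney. The strand setting of the counting is not stated, so reads of such pairs may not be separable. Atp6v0c and Cd63 have processed copies that were counted apart, Atp6v0c-ps2 with 296 and 137 reads and Cd63-ps with 3317 and 1741 in the kidneys.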

How the data were processed

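RNA was sequenced from 1 library per group: kidney CLP, kidney CLP + MLT, heart CLP and heart CLP + MLT. Poly-A libraries were made with a NEBNext Ultra kit. Per the labels and the study's methods, the authors used trim-galore for trimming and HISAT2 2.1.0 for alignment to mm10, and deposited raw counts per gene from HTSeq. For HTSeq, neither the version nor the strand setting nor the gene models are stated. In each file 5 rows name no gene (65.5% to 72.8% of its reads), and they were left out of library sizes. Of the reads placed on a gene or on none, 52.1% to 52.6% were on none, and 23.6% to 38.6% of a file were reads with several alignments, which HTSeq left uncounted. The depth was 15883057 to 22927905 counts on genes.

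Gene identifiers were matched to symbols for 55141 of 55401. TMM factors (R 4.3.3, edgeR 4.0.16) were computed within each tissue and were 1.07 (CLP) and 0.935 (CLP + MLT) in kidney and 0.981 and 1.02 in heart. Log2 ratios (CLP + MLT over CLP) were computed with 0.5 as prior count, for genes averaging 10 counts or more. With 1 library per group there was no test between groups of mice, and tests on the reads served only as alternatives. A gene past a fold of 1.5, the fold the study's methods state, was called. Intervals are 95% exact Clopper-Pearson intervals on the reads. PCR copies are not independent molecules, so intervals cover counting error only. RPKM used union exon lengths of GENCODE M21 (GRCm38) and TMM factors over all 4 libraries. Promoters are RefSeq windows of GRCm38.p6. Ratios, intervals and figures came from Python 3.11.15 (scipy 1.17.1, pandas 2.3.3, numpy 2.4.6, statsmodels 0.14.6, matplotlib 3.10.9). The procedure was tested on simulated data with known folds.

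The 35 genes, the other lists (written from general knowledge) and the markers were chosen with earlier results of these data known. Given in full are the genes past a fold of 1.5 in either tissue and Tfeb, Lamp1, Ctsd, Sqstm1 and Map1lc3b. Of each other list, at most 3 genes per direction and tissue are named, those farthest past a fold of 1.5 that averaged 100 counts or more. Other genes of these lists (Scpep1, Ctsk, Acp5, Igf2r, Tmem192, Atg9b, Trib3, Sesn2, Sesn3 and Rragb), Map1lc3a in kidney, the pump genes called in heart, single markers and the full counts of Psap, Neu1, Glb1, Gla and Cd63 were chosen after their values were seen. Alternatives were other scalings (library size, DESeq2 1.42.0 size factors, upper quartile), other filters, a prior count of 5, a library without mitochondrial and haemoglobin genes, removal of the trend on gene length, a fold of 2, and tests on the reads. The value of 1 gene of the other lists is left out of the text.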

Additional observations from a re-analysis of the deposited data

Results flagged for a closer look

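For 4 of the 35 genes the counting intervals of the ratio (log2, CLP + MLT over CLP) lay above 0 in one tissue and below 0 in the other. Each tissue had 1 library per group, so the difference between tissues was not tested. Tfeb was 0.38 in kidney and -0.57 in heart, a heart minus kidney difference of -0.95. Glb1 was 0.30 and -0.46, a difference of -0.76. Neu1 was -0.37 and 0.37, a difference of 0.74. Tpp1 was -0.28 and 0.21, a difference of 0.49. The remaining 31 genes did not meet this rule, and no other rule could be applied with 1 library per group.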

How the results depend on the processing

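No paired analysis was possible because each group had 1 library. The count of the 35 genes called lower in kidney was 9, and it was 17 with scaling by library size only, 1 (Ctsl) at a fold of 2, and 1 (Ctsl) and 0 when edgeR's exact test at p of at most 0.01 was added with assumed coefficients of variation of 0.2 and 0.4. Scaling by library size only moved the median of all genes in kidney to -0.19 and that of the 35 genes from -0.37 to -0.57, and all-gene calls from 1863 higher and 1971 lower to 1149 higher and 3172 lower, so that 26.6% of calls were higher in place of 48.6%. In heart, 1 gene was called (Ctsd), 2 (Ctsd and Tfeb) with the trend on gene length removed, and 0 at an assumed variation of 0.4. The all-gene calls were 3834 in kidney and 3723 in heart. They were 10695 and 10461 with no filter, 2014 and 1870 at a mean of at least 50 counts, 1464 and 1308 at 100, and 1529 and 1559 at a fold of 2. With a binomial p of at most 0.01 on the reads they were 2547 and 2477, and at the assumed variations 619 and 662 (0.2) and 90 and 63 (0.4). Of heart calls, 33.0% were higher at a mean of at least 100 counts, against 46.4%. No ratio of the 35 genes that was called changed sign under any scaling, prior count, filter or length setting. By upper quartile 32 of the 35 were lower in kidney, against 33. Depth limits Gla, Ctss and Glb1 in heart most, where the reads are fewest.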
